A study of Mus musculus with 2 samples.

Results

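The 31 genes described here encode the enzymes that build cholesterol from acetyl-CoA, the proteins that switch those enzymes on, and the fatty acid enzymes under the same control. They were listed by symbol and kept if they had at least 50 UMIs (unique molecular identifiers, each standing for 1 captured RNA molecule) over both libraries. All 31 passed, out of 14172 gene models that did and 32285 in the annotation. They were measured by single-cell RNA sequencing in cells that had been drawn from mouse tumours with a CD45 antibody. Animals of one group had received cepharanthine (CEP), a plant alkaloid, and animals of the other a vehicle, whose sample title reads "Vehide". The design names 5 biological replicates per group, but each group has 1 library here, and cells cannot be traced to animals. The labels give no strain, age, tumour model, dose or schedule.

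Cells make cholesterol through the mevalonate pathway, whose later steps turn squalene into lanosterol and trim lanosterol to cholesterol. The transcription factors made from Srebf1 and Srebf2 drive these genes. They are held in the endoplasmic reticulum by Scap and the Insig proteins while sterol is plentiful, and are carried to the Golgi and cut free when sterol is scarce. Srebf2 is best known for the sterol genes and Srebf1 for the fatty acid genes, and Insig1 is itself a target. Growing cells need sterol and fatty acid for new membrane, and macrophages also take up sterol from the cells and lipoproteins that they engulf.

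Regulatory sequence before the start of 4 members is shown, because these genes carry results below and their known regulators read such sequence. The bases are from the RefSeq promoter windows of GRCm38.p6 (the assembly of mm10), 5′ to 3′ on the gene's strand, and stop before the first transcribed base of either annotation. Capitals mark the letters TCACNCCAC, a sterol regulatory element to which SREBP proteins bind, and CCAAT, the box read by their partner NF-Y, on either strand (ATTGG is CCAAT on the other strand). The stretch of Hmgcs1, which encodes cytosolic HMG-CoA synthase, lies at chr13:119690101-119690350 on the plus strand. That of Insig1 lies at chr5:28071162-28071362 on the plus strand, that of Fasn, fatty acid synthase, at chr11:120824548-120824797 on the minus strand, and that of Ebp, a sterol isomerase, at chrX:8193513-8193762 on the minus strand.
Hmgcs1: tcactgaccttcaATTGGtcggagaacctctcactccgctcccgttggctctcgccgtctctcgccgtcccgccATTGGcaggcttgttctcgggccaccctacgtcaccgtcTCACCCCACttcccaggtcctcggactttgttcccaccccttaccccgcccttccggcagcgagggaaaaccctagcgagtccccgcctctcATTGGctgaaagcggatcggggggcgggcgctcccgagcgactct
Insig1: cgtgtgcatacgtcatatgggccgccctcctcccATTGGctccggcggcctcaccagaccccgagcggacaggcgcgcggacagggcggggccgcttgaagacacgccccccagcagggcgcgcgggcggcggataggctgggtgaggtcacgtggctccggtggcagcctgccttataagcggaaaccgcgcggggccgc
Fasn: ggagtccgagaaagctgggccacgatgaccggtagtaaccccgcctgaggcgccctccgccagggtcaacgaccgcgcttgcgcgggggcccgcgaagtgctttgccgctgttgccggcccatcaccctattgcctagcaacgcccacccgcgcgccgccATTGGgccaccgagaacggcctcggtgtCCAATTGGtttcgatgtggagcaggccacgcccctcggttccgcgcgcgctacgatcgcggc
Ebp: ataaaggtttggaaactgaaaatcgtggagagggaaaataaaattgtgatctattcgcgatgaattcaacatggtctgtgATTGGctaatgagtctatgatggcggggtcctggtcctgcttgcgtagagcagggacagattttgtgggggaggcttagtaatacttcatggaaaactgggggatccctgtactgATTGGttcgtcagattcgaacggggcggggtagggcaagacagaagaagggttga

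RefSeq windows of 300 bases, which run from 250 before to 50 after a start, were found for 24 of the 31 members, in 32 windows. Fdps, Fads1, Sqle, Scd1, Scd2, Fdft1 and Stard4 had no entry. CCAAT was present on either strand in 65.6% of these windows and in 37.4% of all 32851 windows, and 20 of the 24 genes held it. GGGCGG, the box of Sp1, was in 78.1% of the members' windows and 35.7% of all windows, and 21 of the 24 genes held it. TCACNCCAC was found in Hmgcs1 alone, where its first base lies at position 114 of the window. It was in 1.24% of all windows. TCACGTGA, an E-box form, was in 0.974% of all windows and in none of the 32. These are letter matches in a short window and say nothing of binding, and no match says only that those letters are absent from the window.

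Depth was similar: 9621 barcodes carried 88721774 UMIs in CEP, and 9989 carried 81208647 in Vehicle. Of these, 9544 and 9932 cells were kept. Cells were assigned by UMIs of a few defining genes, and cells that met more than 1 definition were left out. The macrophage gate (C1qa, C1qb and C1qc) held 4706 CEP and 5160 Vehicle cells, the neutrophil gate (Csf3r and Cxcr2) 1640 and 2103, the T cell gate (Cd3d, Cd3e and Cd3g) 149 and 238, the dendritic gate (Flt3) 88 and 95, and the epithelial gate (Krt8 and Krt18) 801 and 127. In no gate were 2107 and 2168 cells. The 7 macrophage markers, none of them a gate gene, summed to 16019 and 16447 CPM (UMIs per 1000000 UMIs of the gate) in the macrophage gate. In the epithelial gate they summed to 36.5 and 30.0. The 6 epithelial markers reached 6606 and 6987 CPM in the epithelial gate although the cells had been selected for CD45. That list holds Krt8 and Krt18, which define the gate, so its high level there is no separate check of the gate. Macrophages had a median of 10017 and 11228.5 UMIs per cell, neutrophils of 1742 and 1836, and epithelial cells of 26397 and 27614. Both libraries held 136 of the same barcode sequences. With 1 library per group no test of treatment was possible, and every interval is a 95% interval for counting error only. A ratio is called past the fold limit, by size alone, when it exceeds 0.32 on the log2 scale in either direction.

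Most of the sterol and fatty acid genes were lowest in neutrophils. The neutrophil gate had the lowest level for 26 of the 31 members in the CEP library and 25 in the Vehicle library, where the share over all genes was 43.9% and 48.7%. Neutrophils also had the fewest UMIs per cell of any gate, with a median of 1742 and 1836. Thinned to 1000 UMIs per cell, only 15 members were lowest in Vehicle neutrophils, so the count for that library depends on the processing. Against the macrophage level of the same gene, the neutrophil level had a median of 31.9% in CEP and 25.4% in Vehicle. The macrophage marker list, which neutrophils should largely lack, stood at 8.45% and 6.43% of its macrophage level in the neutrophil gate. In CEP 7 members and in Vehicle 9 lay under double that share. The part of RNA from other cells in these neutrophil values was not tested. Insig2 was among the exceptions and was lowest in macrophages in both libraries, at 19.2 and 17.9 CPM, with 23.8 and 24.1 CPM in neutrophils.

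**Figure D1:**
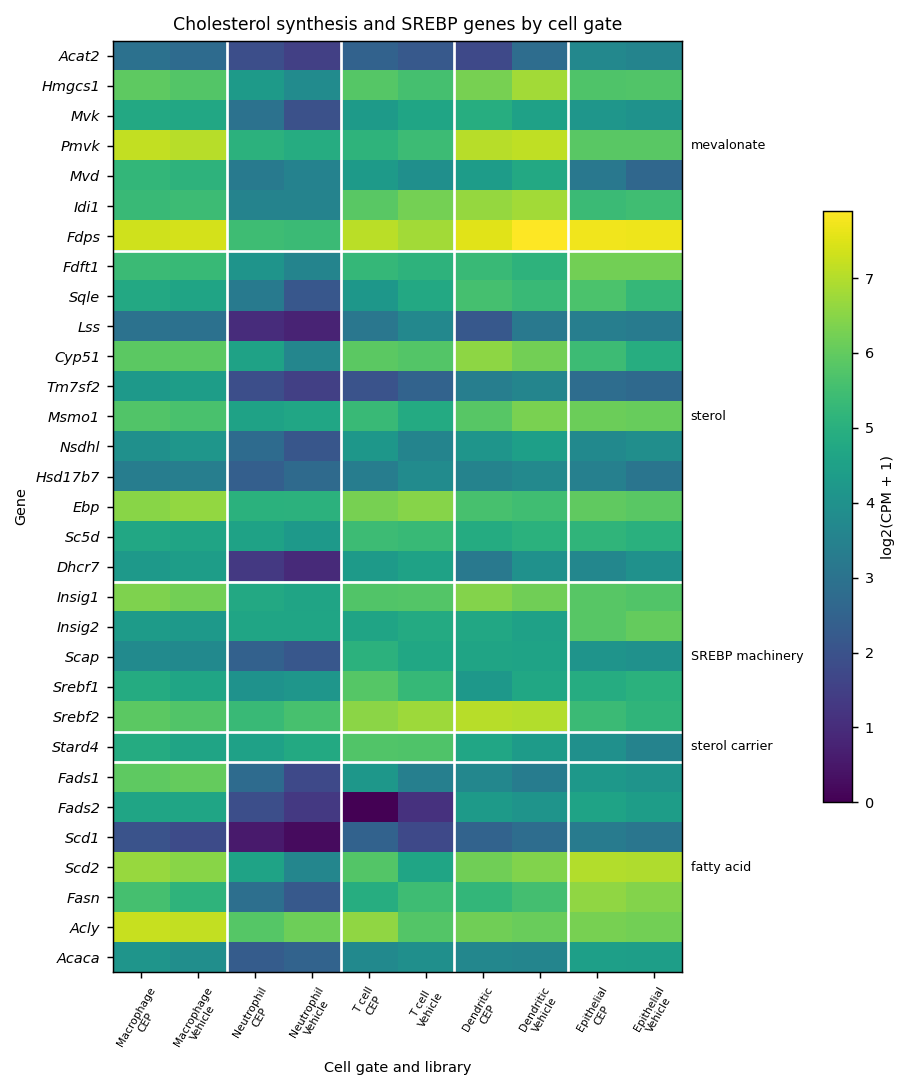
Level of each of the 31 genes (rows, grouped by role) in each gate and library (columns), as log2 of CPM plus 1, with brighter colour for a higher level. The neutrophil columns are the darkest for most rows, in both libraries.

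The gate with the highest level was the same in both libraries for 22 of the 31 members. For 21 members both libraries of that gate lay above all values of every other gate, which also held for 65.9% of all genes. These were 7 members in epithelial cells, 6 in macrophages, 4 in dendritic cells and 4 in T cells. Counting intervals of the top gate cleared those of every other gate for 6 of the 31 members, beside 23.3% of all genes: Fdft1, Insig2, Scd2 and Fasn in epithelial cells, and Fads1 and Acly in macrophages. For the others, an interval of at least 1 other gate reached into the range of the top gate.

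Among the mevalonate enzymes, Hmgcs1 and Idi1 (isopentenyl diphosphate isomerase) were highest in dendritic cells. Hmgcs1 reached 75.8 CPM there in CEP and 109.7 in Vehicle, and Idi1 99.2 and 109.7. A gene model on the other strand overlaps the start of Idi1, and whether this bears on the Idi1 counts was not tested. Fdps, farnesyl diphosphate synthase at the branch to sterols and prenyl groups, was highest in epithelial cells in CEP (211 CPM) and in dendritic cells in Vehicle (238 CPM), and the 2 gates overlapped. Pmvk (phosphomevalonate kinase) was at 143 CPM in CEP macrophages and 141 in Vehicle dendritic cells, with overlapping gates. Mvd (mevalonate decarboxylase) was highest in macrophages, at 36.5 and 33.3 CPM, and low in epithelial cells, at 7.89 and 5.19. Mvk (mevalonate kinase) peaked at 29.2 CPM in CEP dendritic cells and 25.7 in Vehicle macrophages. Acat2, the cytosolic thiolase of the first step, was highest in epithelial cells, at 12.0 and 10.9 CPM.

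The enzymes from squalene to cholesterol had no common top gate. Fdft1, squalene synthase, was highest in epithelial cells, at 72.6 and 73.4 CPM. Sqle, squalene epoxidase, peaked at 50.02 CPM in CEP epithelial cells and 40.3 in Vehicle dendritic cells, and Msmo1 (methylsterol monooxygenase) at 69.2 and 78.5 in the same gates. Cyp51, lanosterol demethylase, was highest in dendritic cells, at 92.2 and 73.5 CPM. Ebp was highest in macrophages (88.7 and 98.0 CPM), as was the sterol reductase Tm7sf2 (18.0 and 20.3). Sc5d, a sterol desaturase, was highest in T cells at 41.8 and 39.2 CPM. Dhcr7, the reductase of the last step, was at 18.6 and 22.6 CPM in T cells, from only 12 and 19 UMIs. Its macrophage level was close to this, at 18.5 and 19.9 CPM from 957 and 1227 UMIs. The remaining sterol enzymes were low and their order also rested on few UMIs. Lss (lanosterol synthase) peaked at 9.46 CPM in CEP epithelial cells and 11.9 in Vehicle T cells, Nsdhl (a sterol dehydrogenase) at 17.0 in CEP T cells and 21.1 in Vehicle dendritic cells, and Hsd17b7 (a ketosterol reductase) at 10.5 in CEP dendritic cells and 13.1 in Vehicle T cells.

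The regulators were spread over different gates. Srebf2 was highest in dendritic cells, at 132 CPM (109 to 158) in CEP and 127 (106 to 151) in Vehicle, above macrophages at 58.9 and 52.6 and epithelial cells at 41.1 and 35.2. The T cell level of 91.3 (69.5 to 118) and 106 (85.0 to 130) overlapped the dendritic one. Srebf1 was highest in T cells, at 55.7 CPM (39.0 to 77.1) and 38.1 (26.0 to 53.7), and Scap, the sterol sensor that escorts both factors, was also highest there, at 32.5 and 25.0. Insig2 was highest in epithelial cells, at 56.1 CPM (53.0 to 59.3) in CEP and 64.7 (56.7 to 73.5) in Vehicle, where the next highest single value was 27.4, in Vehicle T cells. Insig1, its sterol-induced relative, reached 85.2 CPM in CEP dendritic cells and 73.0 in Vehicle macrophages, and the 2 gates overlapped. Stard4, a carrier of cholesterol between membranes, was highest in T cells at 52.6 and 52.3 CPM.

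**Figure D2:**
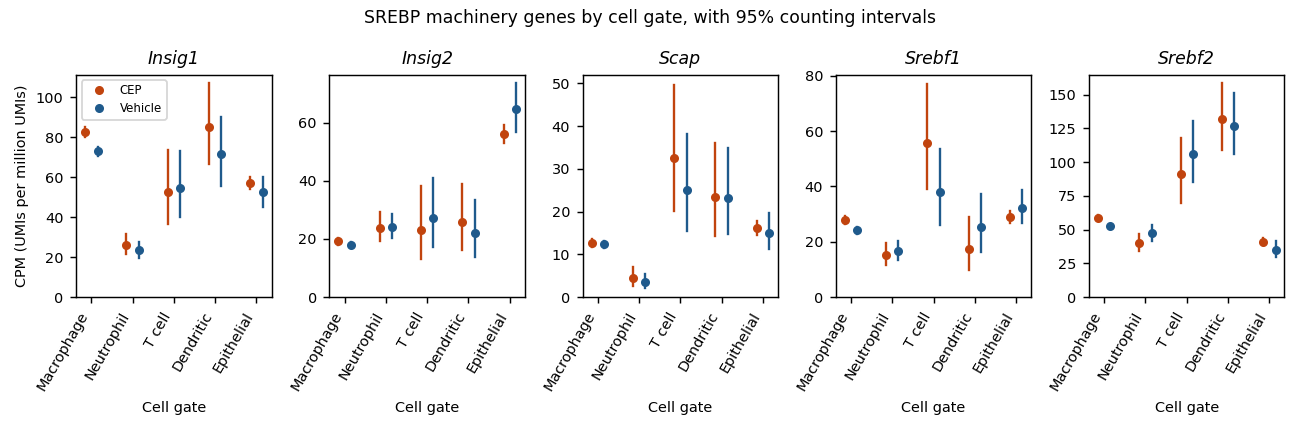
Level in CPM (y axis, from 0) of the 5 SREBP machinery genes in each gate (x axis) for the CEP and Vehicle libraries, with lines for the 95% counting interval. Insig2 stands highest in epithelial cells and Srebf2 in dendritic and T cells, and the longest lines are those of the T cell and dendritic gates.

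Fatty acid genes divided between macrophages and epithelial cells. Acly (ATP citrate lyase, which makes cytosolic acetyl-CoA) was highest in macrophages, at 150.3 and 144 CPM. Fads1 and Fads2, the desaturases of polyunsaturated fatty acids, were highest there too, Fads1 at 60.7 and 64.4 CPM and Fads2 at 23.9 and 24.2. In epithelial cells Fads2 was at 23.0 and 19.9 CPM, nearly level with macrophages in CEP. In T cells Fads2 was at 0 of 646289 UMIs in CEP, which allows up to 4.64 CPM by a floor of 3 counts, and at 1.19 CPM in Vehicle. Fasn was highest in epithelial cells (95.7 and 85.2 CPM), with Scd2 (127 and 124), Scd1 (8.79 and 7.64) and Acaca, acetyl-CoA carboxylase (21.2 and 20.5). Scd1 and Scd2 are closely related stearoyl-CoA desaturases, and whether reads could pass from one to the other in the authors' counting was not tested.

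In macrophages, where each gene was counted most deeply, the list as a whole differed little between CEP and Vehicle. The median log2 ratio of CEP over Vehicle was 0.11 over 31 members and 0.02 over all 12764 genes measured, and 20 members lay above the median of all genes and 11 below. Fasn alone was past the fold limit higher, and none was past it lower. Over all genes 11.5% were past it higher and 4.83% lower, so 1 of 31 is a smaller share than the background. Fasn stood at 46.4 CPM (44.5 to 48.3) in CEP and 34.1 (32.6 to 35.6) in Vehicle, with a ratio of 0.44 on the log2 scale (0.36 to 0.53). The 2 intervals do not overlap. Markers of epithelial cells, where Fasn is highest, differed the same way in the macrophage gate: all 6 were higher in CEP, summing to 333.5 CPM against 67.6. Without macrophages that carried at least 3 keratin or at least 3 collagen UMIs (153 and 26 cells) the Fasn log2 ratio was 0.36. Cells with fewer such UMIs stayed in. Without cycling macrophages the Fasn ratio was 0.40. For every result without cycling cells, those left out had at least 3 UMIs of 10 cell cycle genes.

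The SREBP machinery and several targets were slightly higher in CEP macrophages. Each of the 5 machinery genes exceeded the median of the gate, and they summed to 201 CPM against 180, a log2 ratio of 0.16 (0.12 to 0.20). Insig1 was at 82.6 against 73.0 CPM (0.18, 0.12 to 0.24), Srebf1 at 28.0 against 24.2 (0.21, 0.11 to 0.32) and Srebf2 at 58.9 against 52.6 (0.16, 0.09 to 0.24). Insig2 (0.11) and Scap (0.04) had intervals that held 0. Fatty acid genes summed to 403 against 372 CPM (0.12, 0.09 to 0.14), with Scd2 at 102 against 88.9 (0.20, 0.14 to 0.25) and Scd1 at 3.03 against 2.48 (0.29, −0.04 to 0.62). All of these lie inside the fold limit, and the spread between animals is not known.

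Within the sterol pathway itself the directions were mixed. Mevalonate enzymes summed to 473 against 460 CPM (0.04), and the enzymes after them to 360 against 365 (−0.02, −0.05 to 0.01). Hmgcs1 (59.8 against 53.6 CPM; 0.16, 0.09 to 0.23) and Sqle (26.2 against 23.5; 0.16, 0.05 to 0.27) were higher in CEP. Fdps was at 161 against 167 CPM (−0.06, −0.10 to −0.02), and Idi1 at 40.1 against 41.7 (−0.05, −0.14 to 0.03). Ebp was at 88.7 against 98.0 (−0.14, −0.20 to −0.09). Other SREBP targets had a median of 0.09 over 10 genes, with malic enzyme (Me1, 1.47 against 0.34 CPM) the 1 past the limit. Of 8 genes of sterol sensing by LXR and of efflux, 7 lay below the median of all genes, and Cyp27a1, sterol hydroxylase, was past the fold limit lower at 15.8 against 20.2 CPM (−0.36, −0.49 to −0.23). The 5 genes that process SREBP and the 6 of sterol uptake and storage had none past the fold limit, with medians of 0.06 and 0.02. In the same gate the dissociation-response list stood at 5606 against 4891 CPM and mitochondrial transcripts at 12599 against 10976, and their part in these differences was not tested.

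**Figure D3:**
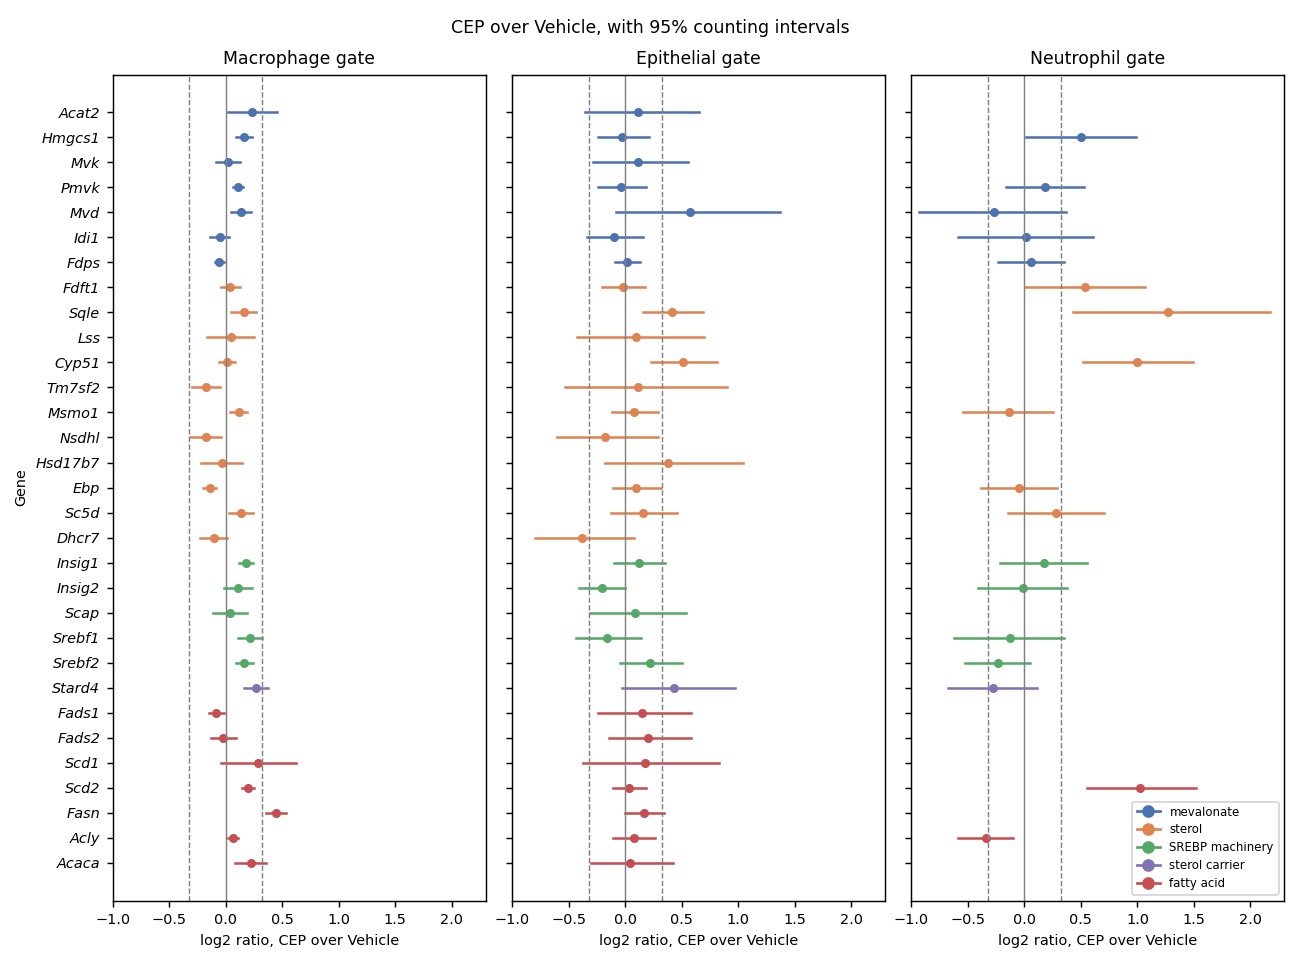
Log2 ratio of CEP over Vehicle (x axis) for each measured member (y axis) in the macrophage, epithelial and neutrophil gates, with lines for the 95% counting interval, a solid line at 0 and dashed lines at the fold limit. Macrophage intervals are narrow and only Fasn passes the dashed line, while neutrophil intervals are wide and Sqle, Scd2 and Cyp51 lie near or above 1.

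Epithelial cells also kept similar levels in the 2 libraries. The median log2 ratio was 0.10 over 31 members and −0.04 over 10782 genes, with 26 members above the median of all genes and 5 below. Past the fold limit higher were 5 members (8.49% of all genes) and 1 was lower (13.6%). Cyp51 was at 41.7 CPM (39.1 to 44.5) in CEP and 29.2 (23.9 to 35.3) in Vehicle, for a log2 ratio of 0.51 (0.22 to 0.82). Sqle was at 50.02 (47.1 to 53.0) and 37.4 (31.4 to 44.2), a log2 ratio of 0.41 (0.16 to 0.69). Neither pair of intervals overlaps. The other 4 past the fold limit, Mvd, Hsd17b7 and Stard4 higher and Dhcr7 lower, had intervals that held 0. Thinned to 1000 UMIs per cell, Sqle turned to −0.64, and the counts to 8 higher and 11 lower. Without the 422 and 59 cells of the gate that had at least 3 UMIs of the cell cycle genes, Cyp51 had a log2 ratio of −0.09 and Sqle of 0.77.

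In epithelial cells each of the 7 fatty acid genes exceeded the median of the gate, and they summed to 371 CPM against 346 (0.10, 0.01 to 0.18). Fasn was at 95.7 against 85.2 CPM (0.17, −0.00 to 0.34), Scd2 at 127 against 124 (0.03) and Scd1 at 8.79 against 7.64 (0.18). The machinery genes summed to 199.4 against 199.6 CPM. Insig2 was at 56.1 against 64.7 CPM (−0.21, −0.41 to 0.00), Srebf1 at 29.0 against 32.2 (−0.16), Srebf2 at 41.1 against 35.2 (0.22), Insig1 at 57.2 against 52.4 (0.12) and Scap at 16.1 against 15.02 (0.09), each with an interval that reached 0. Hmgcs1 (−0.02), Idi1 (−0.10) and Fdps (0.02) were likewise indistinguishable at this depth. Markers of fibroblasts summed to 34.7 CPM in the CEP epithelial gate and 3.55 in the Vehicle one, and neutrophil markers to 188 and 92.0.

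In neutrophils several sterol enzymes and Scd2 were higher in CEP from few UMIs, and Acly was lower. Enough UMIs were present for 18 of the 31, the median log2 ratio was 0.04 against 0.01 for 7443 genes, and 5 members were past the fold limit higher and 1 lower, beside 14.9% and 9.02% of all genes. Cyp51 had 91 CEP and 62 Vehicle UMIs, or 22.6 CPM (18.2 to 27.7) against 11.3 (8.67 to 14.5), a 1.99-fold difference (1.43 to 2.81). Scd2 had 93 and 62 UMIs, or 23.1 CPM (18.6 to 28.3) against 11.3 (8.67 to 14.5), a 2.04-fold difference (1.47 to 2.86). Their intervals do not overlap between libraries. Sqle was at 8.44 against 3.46 CPM from 34 and 19 UMIs (1.27, 0.43 to 2.18), Fdft1 at 15.9 against 10.9 (0.54, 0.01 to 1.07) and Hmgcs1 at 18.6 against 13.1 (0.50, 0.02 to 0.99). Acly was lower, at 54.9 against 69.7 CPM (−0.34, −0.59 to −0.10). The other named members, Idi1 (0.02), Fdps (0.06), Insig1 (0.17), Insig2 (−0.01), Srebf1 (−0.13) and Srebf2 (−0.24), had intervals that held 0.

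Markers of other cell types also differed between the libraries of this gate. Fibroblast markers summed to 1718 CPM in the CEP neutrophil gate and 11.1 in the Vehicle one, and macrophage markers to 1354 and 1058. Mitochondrial transcripts stood at 5708 against 4239 CPM, with 11 of 13 past the fold limit higher, and the dissociation list at 7181 against 6590. Their part in the differences was not tested. Cells with at least 3 keratin or at least 3 collagen UMIs were left out as an alternative (9 CEP cells with 3.80% of the UMIs, and 1 Vehicle cell). Cells with fewer such UMIs stayed in. This gave log2 ratios of 0.87 for Cyp51, 0.73 for Scd2, 0.45 for Fdft1 and 0.33 for Hmgcs1, and Sqle no longer had enough UMIs. The median of the members was then −0.10. With stricter neutrophil definitions Cyp51 was at 0.54, Scd2 at 0.61 and Fdft1 at −0.06, and the counts turned to 3 higher and 6 lower. With at least 10 UMIs per gene they were 14 and 2.

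T cells and dendritic cells were few, and most members could not be compared there. In T cells 15 members had enough UMIs, with a median log2 ratio of 0.10 against −0.00 over 4099 genes. Past the fold limit were 3 higher and 2 lower, beside 16.4% and 17.7% of all genes. From 35 UMIs, Scd2 stood at 54.2 CPM (37.7 to 75.3) in the CEP gate, and from 20 UMIs at 23.8 (14.5 to 36.7) in the Vehicle gate. Its log2 ratio was 1.17 (0.35 to 2.06). Acly was at 95.9 (73.6 to 123) and 54.7 (40.0 to 73.0), a log2 ratio of 0.81 (0.24 to 1.39). Both pairs of intervals lie apart by a small margin. Srebf1 was at 55.7 against 38.1 CPM (0.55, −0.18 to 1.28), and Srebf2 (−0.21), Insig1 (−0.05), Hmgcs1 (0.27), Idi1 (−0.38), Fdps (0.27) and Fasn (−0.52) had intervals that held 0. Macrophage markers summed to 873 CPM in the CEP T cell gate and 394 in the Vehicle one, macrophages being where Acly is highest, and cycling genes to 966 and 744. Their part in the T cell differences was not tested. Neutrophil markers stood at 238 and 1042 CPM and fibroblast markers at 613 and 1649.

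In dendritic cells 15 members had enough UMIs, with a median log2 ratio of −0.10 against −0.01 over 4457 genes. Only 1 member was past the fold limit higher and 3 were lower, beside 14.8% and 14.9% of all genes. All 4 measured mevalonate enzymes lay below the median of all genes. Hmgcs1 was at 75.8 CPM (58.5 to 96.6) in CEP and 109.7 (90.1 to 132) in Vehicle, for a log2 ratio of −0.53, and Fdps at 187 (159 to 218) and 238 (208 to 270), a log2 ratio of −0.35 (−0.65 to −0.05). The intervals of the levels overlap by a small margin in both genes, and without cycling cells the Fdps ratio was −0.06. Idi1 (−0.14), Srebf2 (0.06), Insig1 (0.25), Sqle (0.21), Scd2 (−0.23) and Fasn (−0.32) had intervals that held 0. Fibroblast markers were at 0 in both libraries of this gate, and neutrophil markers at 302 against 754 CPM. The dissociation list stood at 5171 against 4203 CPM with all 10 genes above the median of all genes, cycling genes at 589 against 455, hypoxia genes at 310.3 against 431 and mitochondrial transcripts at 10418 against 9086. Their part in the member differences was not tested.

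Over all kept cells together the picture was different, and the make-up of the libraries moved with it. Fasn was at 55.2 against 33.0 CPM (0.74, 0.68 to 0.81) and Scd1 at 4.70 against 2.65 (0.83, 0.59 to 1.07), and 5 members were past the fold limit higher and 1 lower, beside 26.3% and 14.1% of all genes. Insig2 was at 29.7 against 21.8 CPM (0.45), while within the gates that measured it its log2 ratio was 0.11 in macrophages, −0.01 in neutrophils and −0.21 in epithelial cells. The epithelial gate, where Fasn, Scd1 and Insig2 are highest, held 801 CEP and 127 Vehicle cells, and its part in the pooled ratios was not tested.

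Epithelial cells in division had higher levels of most of these genes in both libraries. Within a gate, cells with at least 10 UMIs of 10 cell cycle genes were set against cells with fewer than 3, a split chosen after the data had been seen and whose genes hold no member. In epithelial cells this compared 288 with 379 CEP cells and 36 with 68 Vehicle cells. Of 19 members with enough UMIs, 14 were past the fold limit higher in cycling cells in both libraries and 1 was lower, beside 16.7% and 14.0% of all genes. The median log2 ratio was 0.74 in CEP and 0.84 in Vehicle, with 0.02 and 0.02 over all genes. Counting all 31 regardless of UMIs, 27 had a higher level in cycling cells in both libraries. Of the others, 2 had a lower one and 2 differed in sign. Over all genes, 30.3% were higher in both and 41.8% lower, but genes with few or no UMIs in the split are included. A fixed count is added to each sum, and the cycling side has more UMIs in both libraries. A gene without UMIs there therefore counts as lower in both. These shares are no fair background for the members.

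Fdps, the branch enzyme, was among the most deeply counted members. It was at 285 CPM in cycling and 104 in other epithelial cells of CEP (1.46, 1.35 to 1.57), and at 347 and 111 in Vehicle (1.64, 1.39 to 1.91). Idi1 was at 54.7 against 17.4 CPM in CEP and 63.6 against 34.8 in Vehicle, and Cyp51 at 54.98 against 20.8 and 42.8 against 21.8. Insig1, the sterol-induced regulator, was at 67.3 against 34.9 (0.95) and 77.6 against 35.5 (1.12), and Srebf2 at 47.8 against 31.7 (0.59) and 48.2 against 31.4 (0.61). Srebf1 (0.06 and −0.19), Insig2 (−0.41 and −0.03) and Ebp (0.02 and 0.17) were not past the fold limit in both libraries. Scd2 was the 1 member past the limit lower in cycling cells, at 104 against 139 CPM in CEP (−0.42, −0.54 to −0.30) and 107 against 134 in Vehicle (−0.33, −0.64 to −0.02), while Fasn was higher, at 109 against 72.3 and 104 against 71.0.

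In macrophages the members' count in the same split lay near that of all genes. The split compared 741 with 3335 CEP cells and 828 with 3650 Vehicle cells, and all 31 members had enough UMIs. Past the fold limit higher in both libraries were 9 members and none was lower, beside 25.1% and 10.2% of all genes. The median log2 ratio was 0.26 in CEP and 0.27 in Vehicle, against 0.12 and 0.09 over all genes. All 11 enzymes from squalene onward were higher in both, as were 49.5% of all genes. Between 10000 and 20000 UMIs per cell this held for 10 of the 11 enzymes and 44.3% of all genes. Both shares of all genes include genes with few or no UMIs in the split. Here the cycling side has fewer UMIs, so with the fixed count added a gene without UMIs counts as higher in both. These shares are therefore no fair background for the enzymes. Fads2 had the widest gap, at 39.0 against 16.1 CPM in CEP (1.28, 1.10 to 1.46) and 39.6 against 16.5 in Vehicle (1.26, 1.10 to 1.42). Fdps was at 211 against 133 and 210 against 142, Sqle at 35.2 against 22.2 and 30.1 against 20.5, and Fasn at 60.7 against 37.9 and 40.7 against 28.7. Acly was lower, at 134 against 157 CPM (−0.23) and 122 against 152 (−0.31), as was Mvd (−0.30 and −0.29), neither past the fold limit. Fasn was higher in CEP than in Vehicle in both cycling and other macrophages.

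**Figure D4:**
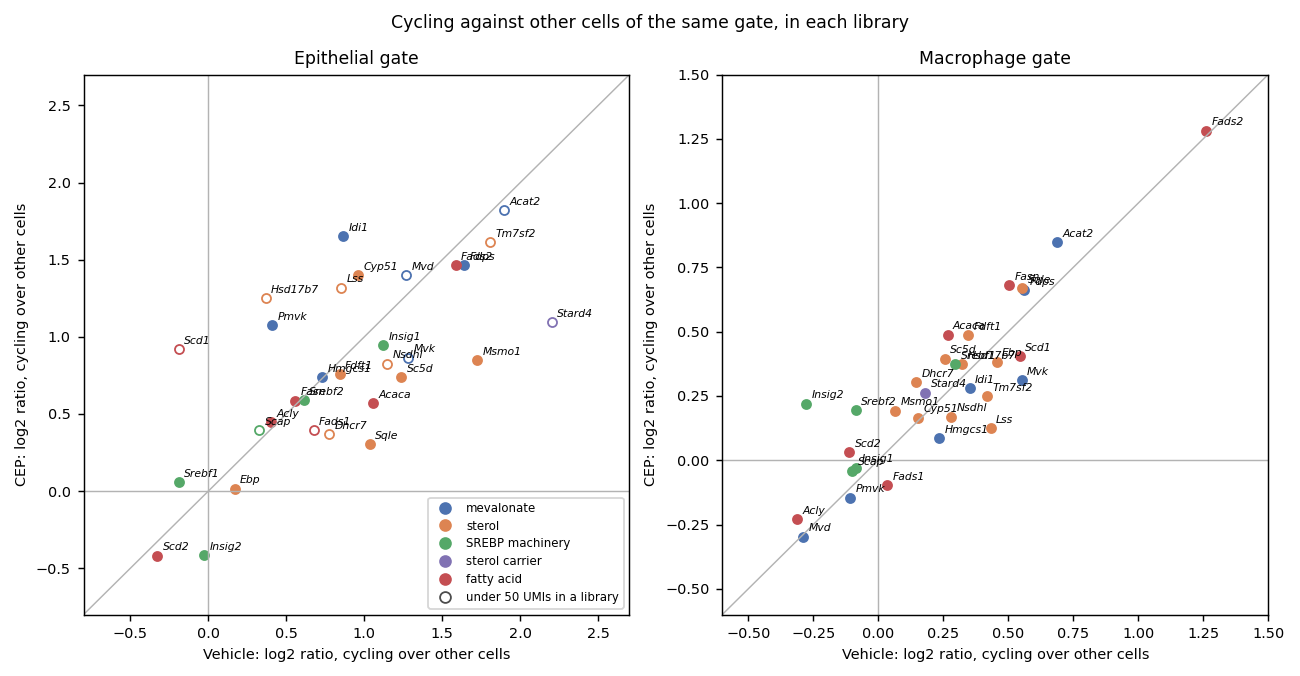
Log2 ratio of cycling over other cells in the Vehicle library (x axis) and the CEP library (y axis) for each member, in the epithelial and macrophage gates. Filled points have at least 50 UMIs in each library, and the diagonal marks equal ratios. Fdps and Fads2 lie near 1.5 in both libraries in epithelial cells, Scd2 lies below 0, and Fads2 is the farthest point in macrophages.

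Cycling cells were also deeper, with a median of 35317 against 21662 UMIs in CEP epithelial cells and 16781 against 8778 in CEP macrophages. Restricting the range narrowed this gap without closing it, to 32030 against 25534 in CEP and 33401 against 26081 in Vehicle for epithelial cells of 20000 to 40000 UMIs. Among these, 6 of 15 members with enough UMIs were past the fold limit higher in both libraries and none lower (12.8% and 9.82% of all genes). These were Fdps, Hmgcs1, Fdft1, Msmo1, Insig1 and Srebf2. In Vehicle the log2 intervals of Hmgcs1 (−0.07 to 1.19), Fdft1 (−0.04 to 1.07) and Srebf2 (−0.53 to 1.15) held 0. Fdps was then at 268 against 105 CPM in CEP and 236 against 130 in Vehicle, while Idi1 was at 52.8 against 18.2 in CEP and 38.6 against 42.0 in Vehicle, from 20 and 36 Vehicle cells. Among macrophages of 10000 to 20000 UMIs the 5 of 31 members past the fold limit, no larger a share than the background, were Fads2, Acat2, Sqle, Fdps and Ebp, beside 2040 of 10197 genes higher and 10.5% lower.

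In dendritic cells split by state, the shares of members past the fold limit were near or below those of all genes, and the values are given as a description. Dendritic cells with at least 3 UMIs of Ccr7 and Fscn1, genes of the mature migratory state, numbered 33 in CEP and 28 in Vehicle, against 55 and 67 others. This split was also chosen after the data had been seen. Of 9 members with enough UMIs, Pmvk and Idi1 were past the fold limit higher in both libraries and Scd2 lower, beside 18.9% and 24.1% of all genes. Pmvk was at 189 against 103 CPM in CEP (0.87, 0.31 to 1.42) and 239 against 112 in Vehicle (1.10, 0.58 to 1.60), and Idi1 at 140 against 78.8 (0.83, 0.17 to 1.47) and 186 against 87.3 (1.10, 0.50 to 1.67). Scd2 was at 41.9 against 85.8 CPM from 12 and 49 UMIs, and at 39.9 against 96.4 from 9 and 74. Fdps gave no common direction, at 185 against 187 CPM in CEP and 115 against 274 in Vehicle.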

How the data were processed

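Per the file headers, the authors deposited counts: raw UMIs per gene and barcode, not normalized. The submitters' processing notes name mm10 and Cell Ranger 5.0.1, whereas the headers carry cellranger 7.1.0. No source used here says if reads in introns were counted, which would raise genes with long introns. The members, gene lists and gates were chosen with earlier results of these data known.

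Barcodes needed 200 genes and no more than 15% of UMIs from mitochondrial genes. Gates used raw UMIs: macrophage at least 10 of C1qa, C1qb and C1qc; neutrophil at least 1 of Csf3r and Cxcr2; T cell at least 2 of the Cd3 genes; dendritic at least 1 of Flt3; epithelial at least 10 of Krt8 and Krt18. C1q UMIs had to be under 3 for neutrophils and T cells and under 10 for dendritic and epithelial cells. Cells in more than 1 gate (53 CEP, 41 Vehicle) were left out. Scrublet (scanpy 1.11.5) marked 1 cell in each library, too few to have worked, so the highest 8% of scores were removed as an alternative only.

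UMIs were summed per gate and library and divided by the gate's total (CPM). Levels carry exact Poisson intervals, and ratios exact conditional binomial intervals, at 95%. A log2 ratio had 0.5 UMI added to each sum, and genes needed 50 UMIs in the gate. No test was run. The ratio and interval code was tested on simulated counts. Every member was named once with its highest level; between libraries, members past the fold limit (0.32 on the log2 scale) whose interval left out 1, and 12 fixed genes, were named. Members beyond this rule were chosen after their values were seen. Alternatives were lower UMI minimums, other scaling, averaging over cells, thinning to 1000 UMIs, other gates, no cell filter and doublet removal. Python 3.11.15, numpy 2.4.6, scipy 1.17.1 and pandas 2.3.3 were used, with GENCODE M21 positions and RefSeq promoter windows.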

Additional observations from a re-analysis of the deposited data

Results flagged for a closer look

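Hmgcs1 had log2 ratios of CEP over Vehicle of opposite sign in 2 gates, 0.50 in neutrophils and −0.53 in dendritic cells, each with a counting interval that left out 0. The difference between the gates was not tested, and with each cell's CPM averaged the neutrophil value was −0.02. Acly was higher in CEP T cells (0.81) and lower in CEP neutrophils (−0.34), and this difference was not tested either.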

How the results depend on the processing

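No paired analysis was possible because each group is 1 library. The median log2 ratio of the members ranged over the settings from 0.03 to 0.13 in macrophages, −0.10 to 0.43 in neutrophils, −0.02 to 0.24 in T cells, −0.25 to 0.05 in dendritic cells and −0.14 to 0.14 in epithelial cells. Counts past the fold limit depended on small UMI sums. With at least 10 UMIs per gene they were 14 higher and 2 lower in neutrophils, 8 and 6 in T cells, and 4 and 8 in dendritic cells; with at least 1 UMI they were 16 and 2, 10 and 8, and 4 and 9. With each cell's CPM averaged, 3 were lower in neutrophils, 5 higher and 4 lower in T cells, 4 higher in dendritic cells and 0 lower in epithelial cells. Thinned to 1000 UMIs per cell, the counts were 2 higher in macrophages, 3 lower in neutrophils, 6 and 5 in T cells, 4 and 5 in dendritic cells and 8 and 11 in epithelial cells, and 15 members were lowest in Vehicle neutrophils. With cells of more than 1 gate kept, 13 were higher and 3 lower in neutrophils and 7 higher in T cells. Stricter gates gave 3 higher and 6 lower in neutrophils and 0 higher in dendritic cells. Without the highest Scrublet scores, 2 were higher in macrophages, 2 lower in neutrophils and 0 higher in dendritic cells. In settings chosen after the data had been seen, 2 were lower in neutrophils without cells of another lineage, and without cycling cells 0 were lower in T cells, 3 higher in dendritic cells and 3 lower in epithelial cells. Within the depth bands the cycling split gave 5 higher in macrophages, and 6 higher and 0 lower in epithelial cells. There were 577 values for named genes over the settings. A turn of sign was counted only where the main interval left out 0, and 6 values turned. Turns of genes whose main interval held 0 were not counted as such. Thinned, Sqle turned in macrophages (−0.32) and epithelial cells (−0.64), and Fdps in dendritic cells (0.081). The others were Hmgcs1 in neutrophils by averaging (−0.023), Fdft1 in neutrophils with stricter gates (−0.056), and Cyp51 in epithelial cells without cycling cells (−0.090). A further 37 values lay outside the main interval. The cause was not tested. Precision is set by UMIs, from 51842518 in the CEP macrophage gate to 646289 in the CEP T cell gate.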
